A study of Homo sapiens with 16 samples.

Results

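The 35 genes described here make up the amino acid and serine arm of the ATF4 response. They were chosen by name, with no threshold on a measured value, but with earlier results of these data known. The list holds 8 transcription regulators, 6 feedback and signalling genes and 6 enzymes of serine synthesis and one-carbon metabolism. It also holds 5 other amino acid enzymes, 8 amino acid transporters and 2 genes for a membrane receptor and a secreted protein. All 35 were among the 63653 genes in the files. With a mean of at least 1 FPKM (fragments per kilobase of transcript, scaled to the fragments mapped), 31 of them entered the tests on 12846 genes. NUPR1, BCAT1, SLC1A4 and VLDLR lay below that level and are given by their values only.

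The RNA came from HCT116, an established colon carcinoma line, in which the histone methyltransferase G9a (gene EHMT2) was either inhibited or depleted. In the inhibitor group, cells were exposed for 72 h to 0.5 µM BIX 01294 (trihydrochloride hydrate), a small molecule that inhibits G9a and its relative GLP. In the siRNA group, cells were transfected with 10 nM of a G9a siRNA by a lipid reagent and collected after 72 h. Each treatment had its own control group, and the sources used here do not say with what those control cells were treated. Each of the 4 groups held 2 libraries, each sequenced in 2 runs, whose FPKM were averaged, so that n = 2 per group. All values come from this 1 line. The design text names biological beside technical replicates, but no label says that the libraries of a group are separate cultures. A p-value here therefore weighs a difference only against the spread of the libraries, and that spread may be technical. Over 6587 genes, the first runs of the 2 libraries of a group differed by a median of 6.91 to 8.88% after scaling. The 2 runs of 1 library differed by 6.26 to 9.91%. On the log2 scale the libraries of a group correlated at 0.9816 to 0.9864 and the runs of 1 library at 0.9660 to 0.9819. The libraries were compared within the first run, whereas the repeats also hold any shift between runs. These ranges therefore cannot tell whether libraries differ by more than repeated sequencing.

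ATF4 is a transcription factor whose protein is made when the initiation factor eIF2 is phosphorylated by a stress kinase, for example by GCN2 (gene EIF2AK4) when uncharged tRNAs accumulate. It pairs with C/EBP proteins, binds elements that join a C/EBP and an ATF recognition sequence, and raises genes that synthesise amino acids, import them and charge tRNAs. It also raises its own brakes, among them TRIB3, which binds ATF4, and PPP1R15A, a subunit of the phosphatase that restores eIF2. Serine made by PHGDH, PSAT1 and PSPH feeds the mitochondrial one-carbon enzymes SHMT2, MTHFD2 and MTHFD1L, and G9a has been linked in cancer cells to transcription of the serine genes. Because much of the control of ATF4 is at the level of translation, its mRNA is only 1 of its measures, and no protein was measured here.

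The element itself is shown because it is the sequence feature that ATF4 targets are known to share. Promoter windows from RefSeq (build GRCh38.p14) were matched by symbol for 30 of the 35 genes, and the 250 bases before each start were searched on both strands for TGATGNAA, a common core of the C/EBP-ATF element. It was found for 8 of these 30 genes (26.7%), ASNS, ATF3, BCAT1, CEBPG, CHAC1, JDP2, MTHFD1L and SLC1A5, against 3.89% of 27305 genes with a window. The core TTGCATCA, which read on the other strand is 1 form of TGATGNAA, was found for 6 members (BCAT1, CEBPG, CHAC1, JDP2, MTHFD1L and SLC1A5) and 0.967% of all genes. The longer ATTGCATCA, which contains it, was found for BCAT1 and MTHFD1L and for 0.271% of all genes. NUPR1, PSPH, PYCR1, SHMT2 and SLC7A11 had no window. A match describes the letters only, and its absence says nothing of ATF4 binding. The 30 bases around the match are printed 5′ to 3′ on the strand of the gene, with the match in capitals; in CHAC1 the match lies on the opposite strand and so reads TTGCATCA. JDP2 is not printed because its match lies too near the start for the flanking bases.
ASNS, chr7:97872458-97872487 (- strand): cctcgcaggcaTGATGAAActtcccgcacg
ATF3, chr1:212565205-212565234 (+ strand): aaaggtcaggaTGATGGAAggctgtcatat
BCAT1, chr12:24949131-24949160 (- strand): tgtcttcctgcTGATGCAAtccgctaggtc
CEBPG, chr19:33374060-33374089 (+ strand): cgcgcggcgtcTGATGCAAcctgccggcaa
CHAC1, chr15:40953251-40953280 (+ strand): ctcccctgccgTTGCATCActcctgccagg
MTHFD1L, chr6:150866346-150866375 (+ strand): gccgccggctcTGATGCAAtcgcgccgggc
SLC1A5, chr19:46784893-46784922 (- strand): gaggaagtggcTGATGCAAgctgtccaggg

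The first base of the match lay 68 bases before the start of ASNS, 191 before that of ATF3, 48 for BCAT1, 42 for CEBPG, 209 for CHAC1 and 97 for SLC1A5. For MTHFD1L it lay 90 or 129 bases before the start, depending on the annotated start. In ASNS, the asparagine synthetase gene in which an amino acid response element of this kind is best known, the core lies in this longer stretch:
ASNS, chr7:97872423-97872522 (- strand): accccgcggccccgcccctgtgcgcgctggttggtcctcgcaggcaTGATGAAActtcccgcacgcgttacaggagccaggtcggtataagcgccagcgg

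Of the 8 libraries, the siRNA libraries had 4.68 and 4.54 FPKM of EHMT2 and the other 6 had 15.9 to 24.7, with 24.7 and 21.0 in the inhibitor controls and 19.7 and 18.9 with the inhibitor. BIX 01294 acts on the protein, so this RNA checks the label of the siRNA libraries only. EHMT1, the gene of GLP, had 25.5 and 24.0 FPKM in the inhibitor controls and 9.08 to 15.8 in the other 6 libraries. Both inhibitor controls lay above the other 6 libraries in 25.8% of all genes. The 2 inhibitor controls stood apart: over all genes tested they correlated with each other at r = 0.9925 and with the other 6 libraries at 0.9566 to 0.9735, while the other 6 correlated among themselves at 0.9849 to 0.9950. Their 10 epithelial markers summed to 783 to 790.4 FPKM, against 663 to 742 in the other libraries. The markers did not move together: KRT8 had 257 and 255 FPKM in the inhibitor controls against 153 to 195 elsewhere, and KRT19 at 206 and 212 against 229.9 to 252. Fibroblast markers were checked because the labels also mention foreskin fibroblasts. Of 11 fibroblast markers 1 passed the filter, LUM was at 0 in every library, and the sum was 3.12 to 4.08 FPKM in the inhibitor controls and 2.295 to 3.63 elsewhere. The 5 leukocyte markers summed to at most 1.09. Whether these shifts bear on the results below was not tested. Read counts are not in the files. Relative depth per run was estimated from the width of the authors' intervals for 6607 genes, assuming that the intervals reflect counting error alone. It ranged from 0.288 (siRNA control replicate 2) to 1.013 times that of the deepest library's first run, with inhibitor control replicate 2 at 0.300 and 0.309. In bulk RNA a change in the share of cells that express a gene and a change in RNA per cell cannot be told apart.

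FPKM is a level per transcript length, so members can be ranked against each other. The ATF4 transcript itself was among the most abundant, at 181 to 297 FPKM over the 8 libraries. MTHFD2, the mitochondrial methylenetetrahydrofolate dehydrogenase, spanned 152 to 218, and SLC38A2, a sodium-coupled neutral amino acid transporter, 149.6 to 214. The proline enzyme PYCR1 (92.4 to 136), the transporter heavy chain SLC3A2 (97.3 to 116) and SHMT2 (74.1 to 108) followed, with overlapping ranges, and PSAT1 (54.7 to 68.7) lay below them. At the lower end were SESN2 (1.88 to 2.32), SLC7A11 (1.21 to 2.55), JDP2 (1.08 to 1.72) and CHAC1 (1.07 to 1.98), whose ranges also overlap, except that JDP2 stayed below SESN2. Stress markers that can be strongly induced in a full ATF4 response, CHAC1 and ATF3 (4.04 to 6.77 FPKM), were low in all 4 groups, and DDIT3 reached at most 27.0 FPKM.

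**Figure D1:**
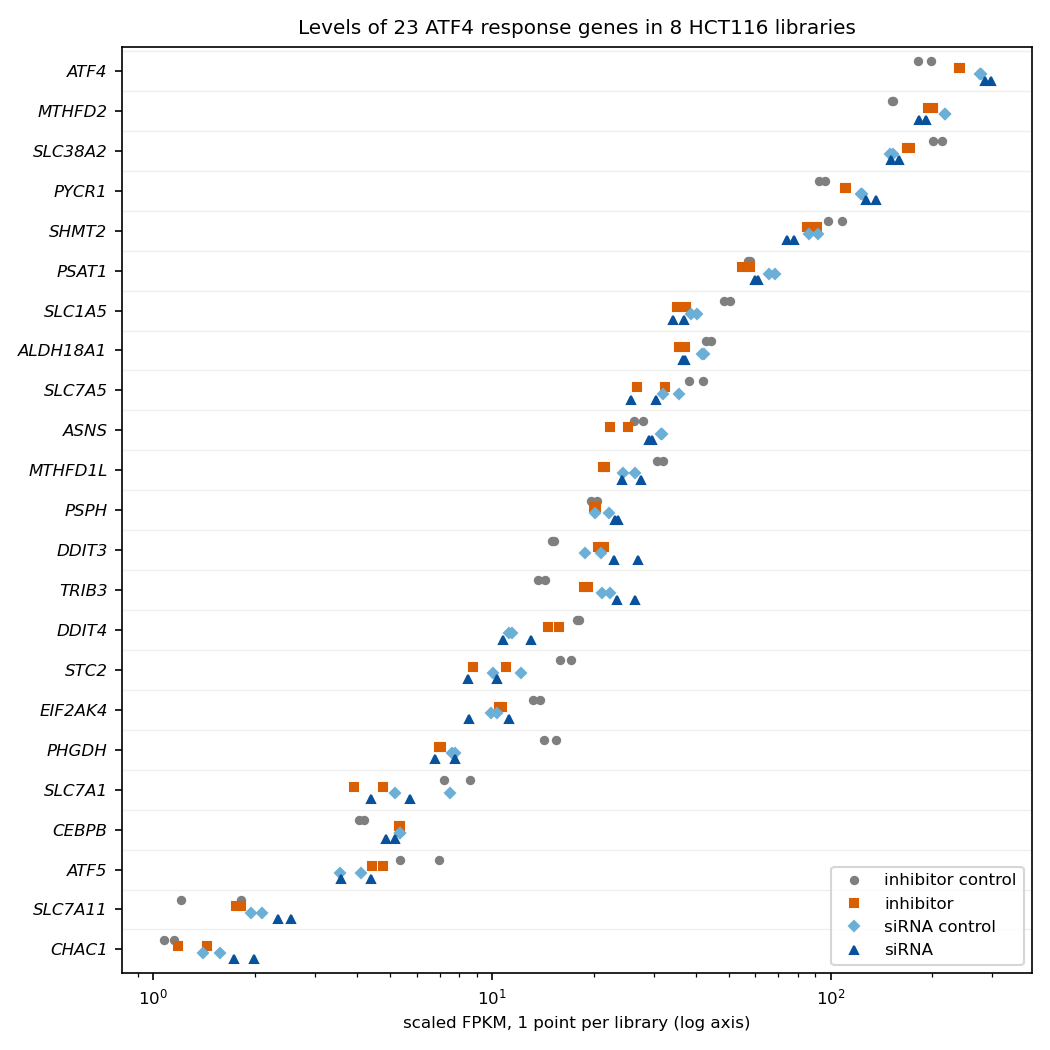
Scaled FPKM (log axis) of the members that results turn on, 1 point per library and 1 colour per group, n = 2 libraries a group, with no error bars because every library is drawn. The inhibitor controls lie below the other 6 libraries for ATF4, DDIT3 and TRIB3 and above them for PHGDH, SLC1A5 and STC2.

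Against their own controls, inhibitor-treated libraries differed in 16 of the 31 tested members at an adjusted p under 0.05 (limma, Benjamini-Hochberg over all 12846 genes). Of these, 6 rose (ATF4, DDIT3, CEBPB, TRIB3, MTHFD2 and PYCR1) and 10 fell (PHGDH, MTHFD1L, SHMT2, ALDH18A1, SLC7A1, SLC7A5, SLC1A5, SLC38A2, STC2 and EIF2AK4), while 15 did not pass. Of all genes 36.5% passed in this comparison, 17.7% higher and 18.7% lower. By role, 3 of 7 transcription regulators rose, and 1 of 6 feedback genes rose and 1 fell. Among serine and one-carbon enzymes 1 of 6 rose and 3 fell, among the other amino acid enzymes 1 of 4 rose and 1 fell, and of 7 transporters 4 fell and none rose. Of the 7 tested genes whose promoter window holds TGATGNAA, MTHFD1L and SLC1A5 fell and ASNS, ATF3, CEBPG, CHAC1 and JDP2 did not pass. The members' median log2 difference was -0.12, against 0.01 over all genes. Libraries of the groups did not overlap for 27 of the 31 members (87.1%), and for 71.5% of all genes.

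The 2 control groups were compared because earlier results of these data had shown the inhibitor controls to stand apart. The siRNA controls, compared with the inhibitor controls, differed in 17 of the 31 members, where 38.3% of all genes passed (19.2% higher and 19% lower). ATF4, DDIT3, CEBPB, TRIB3, MTHFD2, PYCR1, PSAT1 and ASNS were higher, and PHGDH, DDIT4, ATF5, STC2, SLC38A2, EIF2AK4, SLC1A5, MTHFD1L and SHMT2 were lower. That split of 8 higher and 9 lower became 3 higher and 11 lower with the FPKM as deposited, a scaling under which the median of all genes shifted from 0.01 to -0.11. Both of these comparisons use the same 2 inhibitor controls, so their values are given side by side and not as support for each other. In 19 of 31 members (61.3%) both inhibitor controls lay outside the range of the other 6 libraries, 12 above and 7 below, as they did in 51.6% of all genes (25.8% above and 25.8% below). Libraries of the 2 control groups did not overlap for 25 members (80.6%) and for 69.6% of all genes.

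Measured against the siRNA controls, 0 of the 31 members passed with the siRNA (limma; 8 had an unadjusted p under 0.05) and 0 with the inhibitor (12 had an unadjusted p under 0.05). Of all genes 2.13% passed with the siRNA and 0.0389%, or 5 genes, with the inhibitor. An unadjusted p under 0.05 (limma) was found for 2670 of the 12846 genes with the siRNA and for 1599 with the inhibitor. The median member differed by -0.03 with the siRNA and by -0.11 with the inhibitor, against -0.01 and -0.01 over all genes. The members' calls for the inhibitor were obtained against its own controls, and the same inhibitor libraries gave no call against the siRNA controls, which were not the control group assigned to it. With both inhibitor controls left out of the fit, an alternative chosen after seeing the data, 0 members passed in either of these comparisons.

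**Figure D2:**
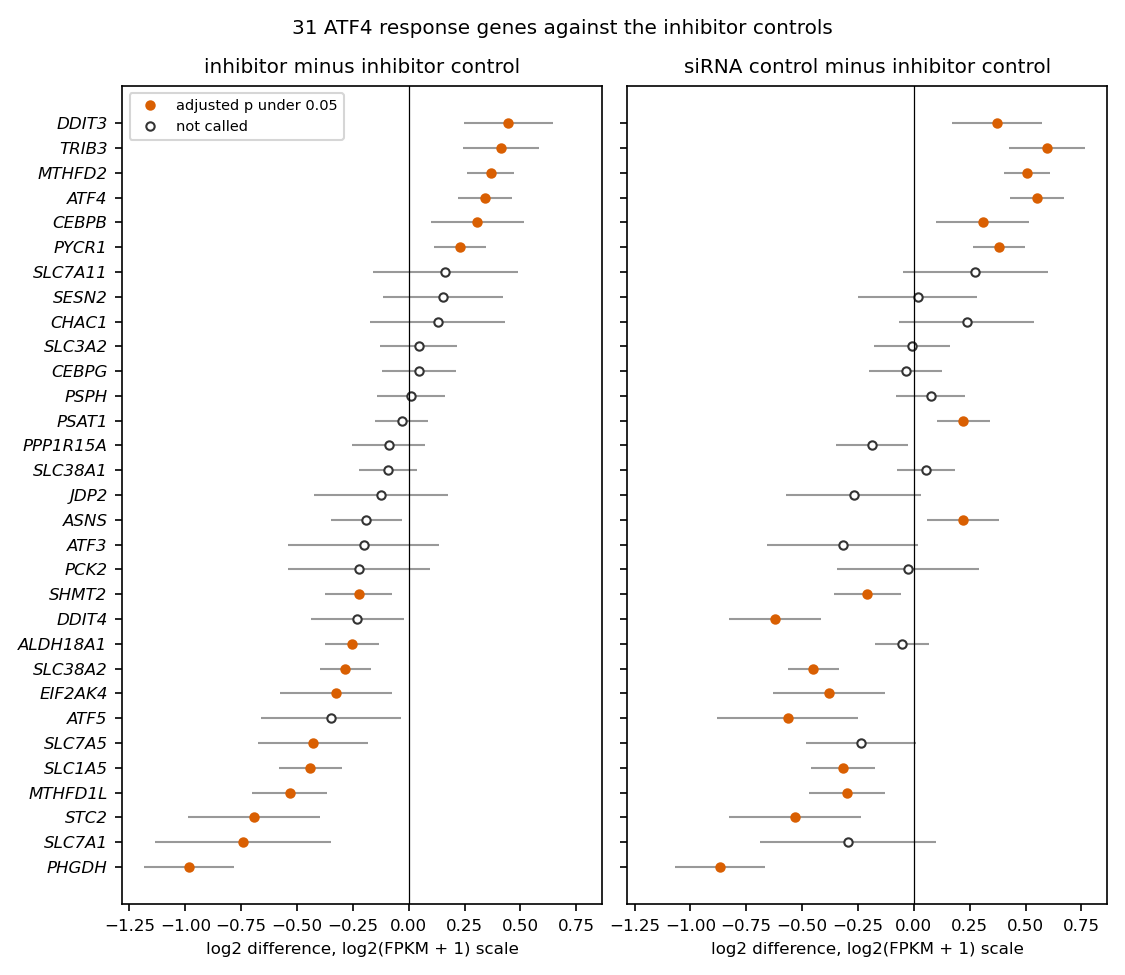
Log2 difference of each of the 31 tested members from the inhibitor controls, on the log2(FPKM + 1) scale, for the inhibitor libraries and for the siRNA controls (n = 2 libraries a group); bars are 95% intervals from the fit. PHGDH lies lowest in both, at -0.98 and -0.87, and ATF4, DDIT3 and TRIB3 lie above 0 in both.

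ATF4 (hg19 chr22:39915700-39918691) stood in 4 separate steps. ATF4 measured 181 and 198 FPKM in the inhibitor controls, 239 and 241 with the inhibitor, 279 and 276 in the siRNA controls and 297 and 286 with the siRNA. No group overlapped another, with the inhibitor controls lowest and the siRNA libraries highest. On the log2 scale the inhibitor libraries were higher than their controls by 0.34 ± 0.05 (SE, adjusted p = 0.00146) and the siRNA controls higher than the inhibitor controls by 0.55 ± 0.05 (SE, adjusted p = 0.000139). Relative to the siRNA controls the inhibitor libraries differed by -0.21 ± 0.05 (SE, adjusted p = 0.201) and the siRNA libraries by 0.07 ± 0.05 (SE, adjusted p = 0.492), neither of which passed. DDIT3 (CHOP), a C/EBP family member that ATF4 raises under stress, had its lowest levels in the same libraries. The level of DDIT3 was 15.0 and 15.2 FPKM in the inhibitor controls and 20.5 and 21.4 with the inhibitor, against 21.1 and 18.8 in the siRNA controls and 27.0 and 22.9 with the siRNA. The inhibitor and siRNA control ranges overlap, and both siRNA libraries lie above all others. DDIT3 rose by 0.45 ± 0.09 (SE, adjusted p = 0.00467) with the inhibitor and was 0.37 ± 0.09 (SE, adjusted p = 0.00999) higher in the siRNA controls than in the inhibitor controls. The DDIT3 locus overlaps that of MARS, and whether the authors' counting used strand is not given, so reads may be shared. DDIT3 lost its call between the control groups without inhibitor control replicate 1 or siRNA control replicate 1 (adjusted p = 0.0503 to 0.0694), and with no filter on low values, FPKM as deposited or the first run alone (adjusted p = 0.0518 to 0.192).

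CEBPB, which encodes a C/EBP protein that can pair with ATF4, was lower in both inhibitor controls than in any other library. For CEBPB the values were 4.04 and 4.18 FPKM in the inhibitor controls, 5.34 and 5.31 after the inhibitor, 5.33 and 5.33 in the siRNA controls and 4.87 and 5.17 after the siRNA. Inhibitor and siRNA control levels were nearly equal, and the siRNA libraries lay between them and the inhibitor controls. The difference was 0.31 ± 0.09 (SE, adjusted p = 0.0281) for the inhibitor against its controls and 0.31 ± 0.09 (SE, adjusted p = 0.0265) between the control groups. CEBPB lost its call for the inhibitor against its controls without inhibitor replicate 1 or 2 or inhibitor control replicate 1 or 2 (adjusted p = 0.078 to 0.118), and with FPKM as deposited or the second run alone (adjusted p = 0.0907 to 0.284). CEBPB lost its call between the control groups without inhibitor control replicate 1 or 2 or siRNA control replicate 1 or 2 (adjusted p = 0.0751 to 0.116), and with FPKM as deposited or the second run alone (adjusted p = 0.255 to 0.332).

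ATF5, a relative of ATF4 that is likewise controlled through translation, was called in the opposite direction to ATF4 between the control groups. ATF5 measured 6.99 and 5.35 FPKM in the inhibitor controls, 4.43 and 4.76 with the inhibitor, 3.55 and 4.09 in the siRNA controls and 3.58 and 4.38 with the siRNA. Both inhibitor controls were above the other 6 libraries, although their own values differed by more than those of any other group. ATF5 was lower in the siRNA controls than in the inhibitor controls, with a difference of -0.56 ± 0.14 (SE, adjusted p = 0.0116), while the inhibitor difference of -0.35 ± 0.14 (SE, adjusted p = 0.0786) did not pass. The latter passed without inhibitor control replicate 2, at -0.52 (adjusted p = 0.0363). ATF5 lost its call between the control groups without inhibitor control replicate 1 or siRNA control replicate 1 (adjusted p = 0.0666 to 0.0825), and with no filter on low values, the first run alone or the second run alone (adjusted p = 0.0615 to 0.066). ATF5 overlaps NUP62. The other regulators tested did not pass in any comparison: ATF3, a stress-induced repressor, CEBPG, a C/EBP partner of ATF4, and JDP2, a relative of ATF3, differed from the inhibitor controls by -0.20, 0.04 and -0.12 with the inhibitor and from the siRNA controls by 0.02, 0.10 and 0.16 with the siRNA.

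TRIB3, a pseudokinase that ATF4 raises and that in turn restrains it, followed the order of ATF4. The level of TRIB3 was 13.7 and 14.3 FPKM in the inhibitor controls and 19.3 and 18.7 with the inhibitor, against 21.2 and 22.3 in the siRNA controls and 26.5 and 23.4 with the siRNA. No group overlapped another. TRIB3 rose by 0.41 ± 0.07 (SE, adjusted p = 0.00291) with the inhibitor against its controls and was 0.60 ± 0.07 (SE, adjusted p = 0.000454) higher in the siRNA controls. DDIT4 (REDD1), an inhibitor of mTORC1 that ATF4 and other stress factors raise, was highest in the inhibitor controls. For DDIT4 the values were 17.8 and 18.1 FPKM in the inhibitor controls, 14.6 and 15.7 after the inhibitor, 11.4 and 11.2 in the siRNA controls and 13.0 and 10.8 after the siRNA. The inhibitor libraries lay between the inhibitor controls and the other 4 libraries, and the siRNA libraries spanned the siRNA controls. DDIT4 was lower in the siRNA controls than in the inhibitor controls, with a difference of -0.62 ± 0.09 (SE, adjusted p = 0.000975), and its difference of -0.23 ± 0.09 (SE, adjusted p = 0.0797) with the inhibitor did not pass. It passed without siRNA replicate 1 or 2 (adjusted p = 0.0381 to 0.0396). An annotated transcript, RP11-442H21.2, overlaps DDIT4.

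EIF2AK4, the gene of the amino acid sensing kinase GCN2 upstream of ATF4, was highest in the inhibitor controls. EIF2AK4 measured 13.9 and 13.2 FPKM in the inhibitor controls, 10.7 and 10.5 with the inhibitor, 10.4 and 9.94 in the siRNA controls and 8.58 and 11.2 with the siRNA. The inhibitor libraries lay just above the siRNA controls, and the siRNA libraries spanned both groups. EIF2AK4 fell by 0.33 ± 0.11 (SE, log2, adjusted p = 0.0463) with the inhibitor, and the siRNA controls differed from the inhibitor controls by -0.38 ± 0.11 (SE, adjusted p = 0.0244). EIF2AK4 lost its call for the inhibitor against its controls without inhibitor replicate 1 or 2, inhibitor control replicate 1 or 2 or siRNA control replicate 1 or 2 (adjusted p = 0.0564 to 0.169), and with no filter on low values, short genes kept, FPKM as deposited, quantile normalization, the first run alone or the replicate block (adjusted p = 0.0527 to 0.181). EIF2AK4 lost its call between the control groups without inhibitor control replicate 1 or 2 or siRNA control replicate 1 or 2 (adjusted p = 0.0601 to 0.103), and with no filter on low values or the first run alone (adjusted p = 0.0866 to 0.107). CHAC1, a glutathione-degrading enzyme and sensitive ATF4 target, did not pass. The level of CHAC1 was 1.15 and 1.07 FPKM in the inhibitor controls and 1.18 and 1.44 with the inhibitor, against 1.57 and 1.40 in the siRNA controls and 1.98 and 1.73 with the siRNA. The inhibitor controls were lowest and the siRNA libraries highest, and the differences were 0.13 ± 0.13 (SE, adjusted p = 0.484) for the inhibitor against its controls and 0.20 ± 0.13 (SE, adjusted p = 0.432) for the siRNA. At these levels the authors' own interval for a run spans a median of 45.8% of the CHAC1 value to either side. The phosphatase subunit PPP1R15A and the leucine sensor SESN2 did not pass in any of the 4 comparisons, at -0.09 and 0.15 with the inhibitor.

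**Figure D3:**
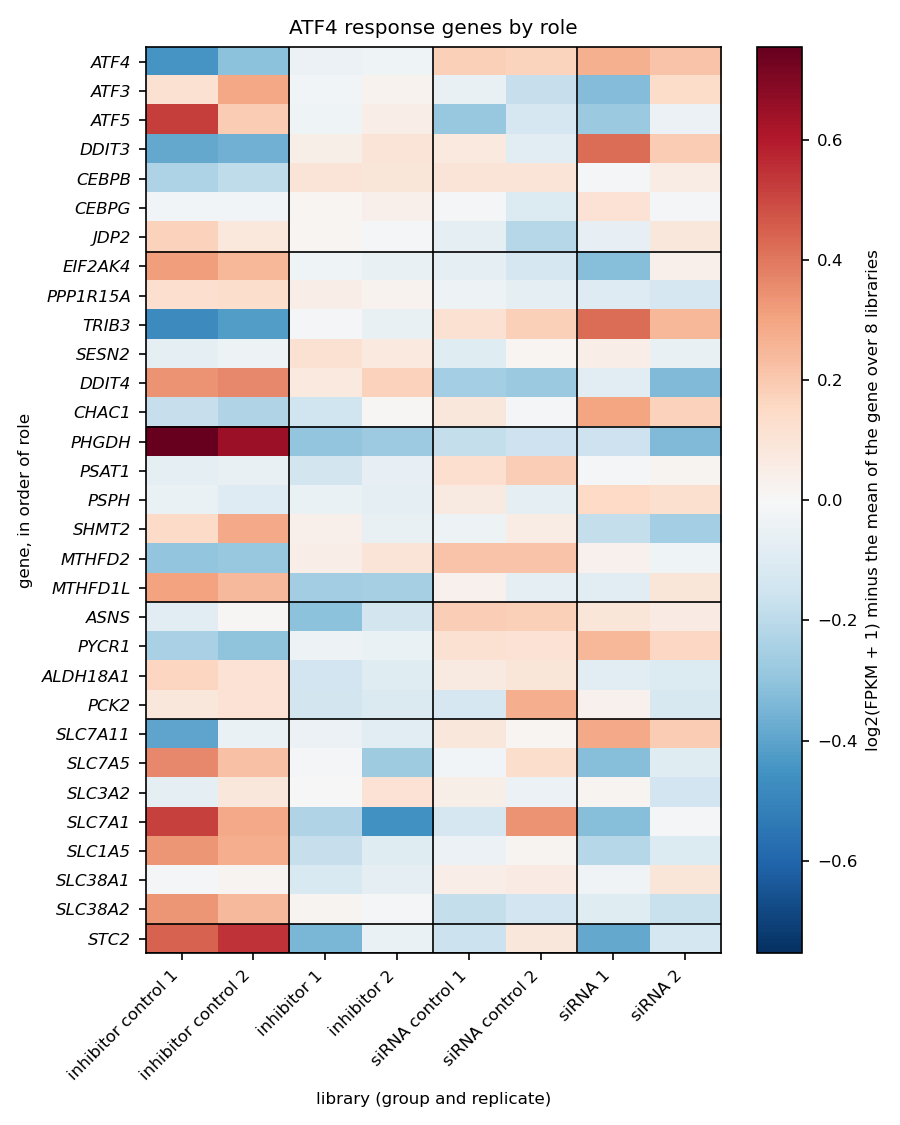
Log2(FPKM + 1) of each tested member in each of the 8 libraries, as the difference from that member's mean over the libraries, ordered by role (n = 2 libraries a group). The inhibitor controls stand apart from the other columns, below the mean for ATF4 and TRIB3 and above it for PHGDH and STC2.

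PHGDH (hg19 chr1:120202421-120286838), the enzyme that commits glycolytic carbon to serine, showed the largest difference of any tested member from the inhibitor controls, both with the inhibitor and in the siRNA controls. For PHGDH the values were 15.5 and 14.3 FPKM in the inhibitor controls, 6.96 and 7.08 after the inhibitor, 7.62 and 7.75 in the siRNA controls and 7.75 and 6.77 after the siRNA. The inhibitor controls were well above every other library. Both inhibitor libraries lay just below both siRNA controls, and the siRNA libraries overlapped each of these groups. The mean was 2.12 times lower with the inhibitor than in its controls, a log2 difference of -0.98 ± 0.09 (SE, adjusted p = 0.00011), and 1.93 times lower in the siRNA controls than in the inhibitor controls, at -0.87 ± 0.09 (SE, adjusted p = 0.000186). From the siRNA controls, the inhibitor libraries differed by -0.12 ± 0.09 (SE, adjusted p = 0.618) and the siRNA libraries by -0.07 ± 0.09 (SE, adjusted p = 0.682). The later enzymes of the pathway, PSAT1 and PSPH, did not pass with the inhibitor. PSAT1, the phosphoserine aminotransferase, was among the more abundant members. PSAT1 measured 57.1 and 57.9 FPKM in the inhibitor controls, 54.7 and 57.7 with the inhibitor, 65.7 and 68.7 in the siRNA controls and 59.9 and 61.1 with the siRNA. Inhibitor and inhibitor control libraries overlapped, and the siRNA controls were highest. PSAT1 differed by -0.03 ± 0.05 (SE, adjusted p = 0.67) with the inhibitor, and was higher by 0.22 ± 0.05 (SE, adjusted p = 0.00993) in the siRNA controls than in the inhibitor controls. PSAT1 lost its call between the control groups without inhibitor control replicate 1 or siRNA control replicate 2 (adjusted p = 0.0539 to 0.0577), and with FPKM as deposited or the first run alone (adjusted p = 0.0585 to 0.573).

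PSPH, the phosphatase that completes serine synthesis, did not pass in any comparison. The level of PSPH was 20.4 and 19.7 FPKM in the inhibitor controls and 20.3 and 20.0 with the inhibitor, against 22.2 and 20.1 in the siRNA controls and 23.5 and 23.01 with the siRNA. The siRNA libraries were highest, and the other groups overlapped. Its differences were 0.01 ± 0.07 (SE, adjusted p = 0.935) with the inhibitor against its controls (95% interval -0.14 to 0.16) and 0.13 ± 0.07 (SE, adjusted p = 0.313) with the siRNA. SHMT2, the mitochondrial hydroxymethyltransferase that passes the carbon of serine to folate, was highest in the inhibitor controls and lowest in the siRNA libraries. For SHMT2 the values were 98.0 and 108 FPKM in the inhibitor controls, 91.0 and 85.3 after the inhibitor, 86.3 and 92.0 in the siRNA controls and 78.2 and 74.1 after the siRNA. The inhibitor and siRNA control ranges overlapped. SHMT2 fell by 0.22 ± 0.07 (SE, log2, adjusted p = 0.0263) with the inhibitor, and the control groups differed by -0.21 ± 0.07 (SE, adjusted p = 0.0344). SHMT2 lost its call for the inhibitor against its controls without inhibitor replicate 2 or inhibitor control replicate 2 (adjusted p = 0.163 to 0.165), and with no filter on low values, FPKM as deposited, the first run alone or the second run alone (adjusted p = 0.0532 to 0.125). SHMT2 lost its call between the control groups without inhibitor control replicate 2 or siRNA control replicate 1 (adjusted p = 0.156 to 0.192), and with no filter on low values, short genes kept, the first run alone, the second run alone or the replicate block (adjusted p = 0.0514 to 0.122).

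MTHFD2 (hg19 chr2:74425689-74444692) was called in the opposite direction to PHGDH. MTHFD2 measured 152 and 153 FPKM in the inhibitor controls, 194 and 201 with the inhibitor, 217 and 218 in the siRNA controls and 192 and 183 with the siRNA. The 4 groups did not overlap, and the siRNA libraries lay below their controls while the inhibitor libraries lay above theirs. MTHFD2 rose by 0.37 ± 0.05 (SE, adjusted p = 0.000507) with the inhibitor, a ratio of means of 1.29, and was 0.51 ± 0.05 (SE, adjusted p = 9.73e-05) higher in the siRNA controls than in the inhibitor controls. The siRNA difference of -0.22 ± 0.05 (SE, adjusted p = 0.0521) did not pass, although it had the smallest adjusted p of the members in that comparison. It passed with quantile normalization (adjusted p = 0.041) and with robust empirical Bayes (adjusted p = 0.0462). MTHFD1L, the mitochondrial formate-producing synthetase whose promoter holds TGATGCAA, differed in direction from MTHFD2. The level of MTHFD1L was 32.1 and 30.8 FPKM in the inhibitor controls and 21.3 and 21.5 with the inhibitor, against 26.4 and 24.4 in the siRNA controls and 24.2 and 27.5 with the siRNA. The inhibitor libraries were lowest, the inhibitor controls highest, and the siRNA libraries spanned their controls. MTHFD1L fell by 0.53 ± 0.07 (SE, log2, adjusted p = 0.000851) with the inhibitor and the siRNA controls differed from the inhibitor controls by -0.30 ± 0.07 (SE, adjusted p = 0.0127). The transcript RP1-292B18.1 overlaps MTHFD1L. MTHFD1L lost its call between the control groups without inhibitor control replicate 1 or siRNA control replicate 2 (adjusted p = 0.0675 to 0.0712), and with no filter on low values or the second run alone (adjusted p = 0.0522 to 0.139).

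ASNS (hg19 chr7:97481430-97501854), asparagine synthetase, is the classical readout of this response. For ASNS the values were 26.3 and 28.0 FPKM in the inhibitor controls, 22.2 and 25.2 after the inhibitor, 31.9 and 31.7 in the siRNA controls and 29.7 and 29.1 after the siRNA. The inhibitor libraries were lowest and the siRNA controls highest, and no groups overlapped. The inhibitor difference was -0.19 ± 0.07 (SE, adjusted p = 0.0648) against its own controls and -0.41 ± 0.07 (SE, adjusted p = 0.101) against the siRNA controls, the smallest adjusted p of the members there, and neither passed. The former passed without inhibitor replicate 2, at -0.28 (adjusted p = 0.0414). ASNS was higher by 0.22 ± 0.07 (SE, adjusted p = 0.038) in the siRNA controls than in the inhibitor controls. ASNS lost its call between the control groups without inhibitor control replicate 1 or 2, siRNA replicate 1 or 2 or siRNA control replicate 1 or 2 (adjusted p = 0.0519 to 0.193), and with no filter on low values, FPKM as deposited, the first run alone or the second run alone (adjusted p = 0.0702 to 0.621). The transcript AC079781.5 overlaps ASNS.

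The proline synthesis enzymes PYCR1, which makes proline, and ALDH18A1, which makes its precursor, were called in opposite directions. PYCR1 measured 96.3 and 92.4 FPKM in the inhibitor controls, 111 and 110.3 with the inhibitor, 124 and 123 in the siRNA controls and 136 and 127 with the siRNA. As for TRIB3, the groups did not overlap, with the inhibitor controls lowest and the siRNA libraries highest, and the transcript RP11-498C9.13 overlaps PYCR1. The level of ALDH18A1 was 44.5 and 42.8 FPKM in the inhibitor controls and 35.7 and 37.2 with the inhibitor, against 41.7 and 42.3 in the siRNA controls and 37.2 and 36.8 with the siRNA. Here the inhibitor and siRNA libraries overlapped and both control groups were higher. PYCR1 rose by 0.23 ± 0.05 (SE, adjusted p = 0.00758) and ALDH18A1 fell by 0.25 ± 0.05 (SE, log2, adjusted p = 0.0062) with the inhibitor. Between the control groups PYCR1 differed by 0.38 ± 0.05 (SE, adjusted p = 0.000577) and ALDH18A1 by -0.05 ± 0.05 (SE, adjusted p = 0.464). PYCR1 lost its call for the inhibitor against its controls without inhibitor control replicate 2 (adjusted p = 0.0523), and with FPKM as deposited or the first run alone (adjusted p = 0.0662 to 0.183). PYCR1 lost its call between the control groups with FPKM as deposited (adjusted p = 0.122). ALDH18A1 lost its call for the inhibitor against its controls without inhibitor replicate 1 (adjusted p = 0.0527), and with FPKM as deposited (adjusted p = 0.0899). PCK2, the mitochondrial phosphoenolpyruvate carboxykinase, did not pass in any of the 4 comparisons and differed by -0.22 with the inhibitor. BCAT1, the cytosolic branched-chain aminotransferase whose promoter window holds the element, was listed at 0 in 7 of 8 libraries.

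Transporters were lower with the inhibitor than in its controls wherever they passed. SLC1A5 (ASCT2), the glutamine importer whose promoter also holds TGATGCAA, had clearly separated controls. SLC1A5 measured 50.6 and 48.5 FPKM in the inhibitor controls, 35.2 and 37.3 with the inhibitor, 38.7 and 40.4 in the siRNA controls and 34.3 and 37.0 with the siRNA. The inhibitor controls were above all others, the siRNA controls next, and the inhibitor and siRNA libraries overlapped. SLC1A5 fell by 0.44 ± 0.06 (SE, log2, adjusted p = 0.000916) with the inhibitor and differed by -0.32 ± 0.06 (SE, adjusted p = 0.00412) between the control groups. SLC38A2 (SNAT2) had the same high group. For SLC38A2 the values were 214 and 201 FPKM in the inhibitor controls, 172 and 168 after the inhibitor, 149.6 and 153 in the siRNA controls and 159 and 151 after the siRNA. The inhibitor libraries were intermediate, and the siRNA libraries and their controls overlapped. Its differences from the inhibitor controls were -0.28 ± 0.05 (SE, adjusted p = 0.00277) with the inhibitor and -0.45 ± 0.05 (SE, adjusted p = 0.000278) in the siRNA controls. SLC38A2 lost its call for the inhibitor against its controls with FPKM as deposited (adjusted p = 0.0667).

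SLC7A5 (LAT1), which exchanges large neutral amino acids, followed. The level of SLC7A5 was 42.1 and 38.1 FPKM in the inhibitor controls and 32.4 and 26.8 with the inhibitor, against 32.1 and 35.7 in the siRNA controls and 25.8 and 30.4 with the siRNA. The inhibitor controls were above all others, and the inhibitor libraries overlapped both the siRNA libraries and their controls. SLC7A1 (CAT1), an importer of arginine and lysine, overlapped more. SLC7A1 measured 8.62 and 7.23 FPKM in the inhibitor controls, 4.76 and 3.90 with the inhibitor, 5.18 and 7.52 in the siRNA controls and 4.39 and 5.71 with the siRNA. Of the siRNA controls 1 library lay within the range of the inhibitor controls, and the inhibitor libraries overlapped the siRNA libraries. With the inhibitor SLC7A5 differed by -0.43 ± 0.11 (SE, adjusted p = 0.014) and SLC7A1 by -0.74 ± 0.17 (SE, adjusted p = 0.01), while between the control groups the values of -0.24 ± 0.11 (SE, adjusted p = 0.118) and -0.29 ± 0.17 (SE, adjusted p = 0.215) did not pass. Between the control groups SLC7A5 passed with FPKM as deposited, at -0.37 (adjusted p = 0.0252), and SLC7A1 with the first run alone, at -0.46 (adjusted p = 0.0392). SLC7A5 lost its call for the inhibitor against its controls without inhibitor replicate 2 or inhibitor control replicate 1 (adjusted p = 0.0841 to 0.111), and with no filter on low values (adjusted p = 0.104). SLC7A1 lost its call for the inhibitor against its controls without inhibitor replicate 2 or inhibitor control replicate 1 (adjusted p = 0.0647 to 0.0762), and with no filter on low values or the second run alone (adjusted p = 0.0779 to 0.0854).

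SLC7A11 (xCT), the cystine importer that supplies glutathione synthesis, did not pass in any comparison. For SLC7A11 the values were 1.21 and 1.81 FPKM in the inhibitor controls, 1.82 and 1.75 after the inhibitor, 2.08 and 1.94 in the siRNA controls and 2.55 and 2.33 after the siRNA. Of the inhibitor controls 1 library was as high as the inhibitor libraries, the other lower, and the siRNA libraries were highest. The differences were 0.16 ± 0.14 (SE, adjusted p = 0.411) with the inhibitor, 0.28 ± 0.14 (SE, adjusted p = 0.162) between the control groups and 0.19 ± 0.14 (SE, adjusted p = 0.483) with the siRNA. SLC3A2 (CD98), the heavy chain shared by SLC7A5 and SLC7A11, differed by 0.04 with the inhibitor and SLC38A1, a glutamine importer, by -0.09; neither passed in any of the 4 comparisons. SLC1A4, a transporter of serine and alanine that was not tested, ranged from 0.630 to 1.20 FPKM, with the highest values in the inhibitor controls.

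STC2, a secreted glycoprotein of the stress response, was the member with the third largest fall with the inhibitor. The level of STC2 was 15.9 and 17.1 FPKM in the inhibitor controls and 8.76 and 10.97 with the inhibitor, against 10.1 and 12.2 in the siRNA controls and 8.48 and 10.3 with the siRNA. The inhibitor controls were above all others, and the remaining groups overlapped. STC2 fell by 0.69 ± 0.13 (SE, log2, adjusted p = 0.00356) with the inhibitor and the control groups differed by -0.53 ± 0.13 (SE, adjusted p = 0.0118). STC2 lost its call between the control groups without inhibitor control replicate 2 or siRNA control replicate 1 (adjusted p = 0.0604 to 0.0775), and with no filter on low values or the second run alone (adjusted p = 0.0861 to 0.338). VLDLR, a lipoprotein receptor, was at 0.015 to 0.037 FPKM, and NUPR1, a small stress-induced regulator, at 0 to 0.393 with 3 libraries listed at 0.

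In the siRNA comparison EHMT2 RNA was at 4.68 and 4.54 FPKM with the siRNA and 15.9 and 17.8 in the siRNA controls. The members' log2 differences there ran from -0.27 to 0.31, 15 of 31 were positive, and libraries of the groups did not overlap for 17 members (54.8%), against 49.7% of all genes. The upper end was DDIT3 at 0.31 ± 0.09 (SE, adjusted p = 0.0994), with a 95% interval of 0.11 to 0.51. The lower end was SLC7A1 at -0.27 (limma, adjusted p = 0.413), followed by SLC7A5 at -0.26 (adjusted p = 0.21). SHMT2 and MTHFD2 also lay lower with the siRNA, at -0.23 ± 0.07 (SE, adjusted p = 0.104) and -0.22 ± 0.05 (SE, adjusted p = 0.0521), with 95% intervals of -0.37 to -0.08 and -0.32 to -0.11. For PHGDH the interval of -0.28 to 0.13 leaves out a change as large as that between inhibitor and inhibitor controls, and for ATF4 it was -0.05 to 0.19. The inhibitor libraries, set against the same siRNA controls, differed most in SLC7A1 (-0.45), ASNS (-0.41) and DDIT4 (0.39), and libraries did not overlap for 22 members (71.0%), against 45.9% of all genes.

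**Figure D4:**
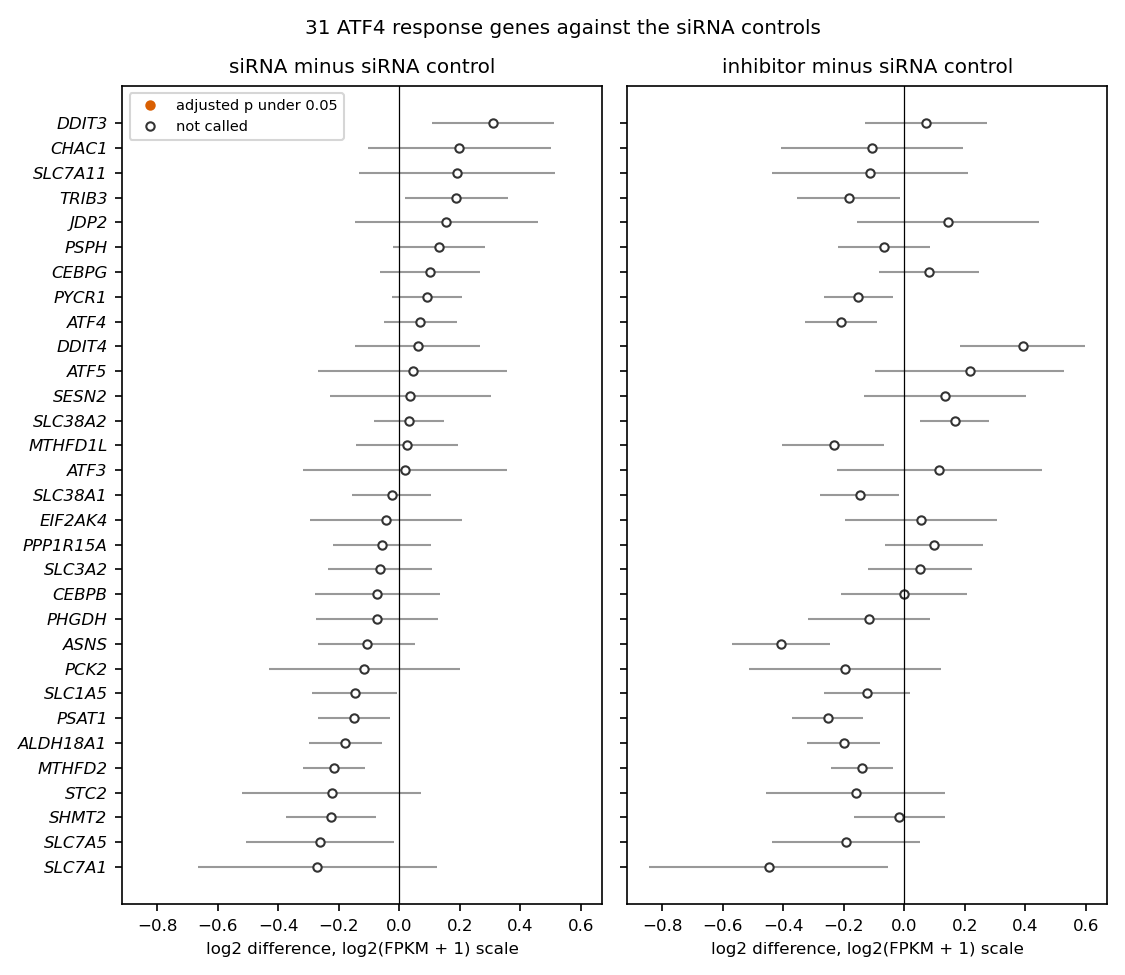
Log2 difference of each of the 31 tested members from the siRNA controls, on the log2(FPKM + 1) scale, for the siRNA and the inhibitor libraries (n = 2 libraries a group); bars are 95% intervals from the fit. Every adjusted p was above 0.05, with MTHFD2 at -0.22 (siRNA) and ASNS at -0.41 (inhibitor) having the smallest.

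The effect of the inhibitor against its controls differed from that of the siRNA against its controls in 5 of 31 members (limma interaction contrast), and in 11.8% of all genes. The difference was 0.58 ± 0.07 (SE, adjusted p = 0.0017) for MTHFD2, with 0.37 for the inhibitor against -0.22 for the siRNA. For PHGDH it was -0.91 ± 0.13 (SE, adjusted p = 0.00403), for MTHFD1L -0.56 ± 0.11 (SE, adjusted p = 0.0135), for SLC38A2 -0.32 ± 0.07 (SE, adjusted p = 0.0255) and for ATF4 0.27 ± 0.08 (SE, adjusted p = 0.0499997, just inside the threshold). The calls of MTHFD2 and PHGDH held under every alternative that was run. ATF4 lost its call in the difference of the treatment effects without inhibitor replicate 1 or 2, inhibitor control replicate 1, siRNA replicate 1 or 2 or siRNA control replicate 1 or 2 (adjusted p = 0.0687 to 0.159), and with a pseudocount of 0.1, no filter on low values, short genes kept, FPKM as deposited, the first run alone, the second run alone or the replicate block (adjusted p = 0.0512 to 0.284). MTHFD1L lost its call in the difference of the treatment effects without inhibitor replicate 1 or 2 (adjusted p = 0.0527 to 0.0537), and with no filter on low values, FPKM as deposited or the second run alone (adjusted p = 0.0542 to 0.0802). SLC38A2 lost its call in the difference of the treatment effects without inhibitor replicate 1 or 2, inhibitor control replicate 1, siRNA replicate 1 or siRNA control replicate 1 (adjusted p = 0.0597 to 0.0949), and with no filter on low values, FPKM as deposited or the first run alone (adjusted p = 0.0795 to 0.367).

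Other genes of the pathway were counted in 5 lists. Of 17 genes for eIF2, its exchange factor and its kinases and their regulators, 5 rose and 6 fell with the inhibitor against its controls, where 36.5% of all genes passed. EIF2B4, a subunit of the exchange factor that phosphorylated eIF2 blocks, differed by -0.88 ± 0.10 (SE, adjusted p = 0.000408), and EIF2AK1, the heme-regulated kinase, by -0.74 ± 0.10 (SE, adjusted p = 0.000858). IMPACT, an inhibitor of GCN2, differed by 0.47 ± 0.08 (SE, adjusted p = 0.00241). Of 18 cytosolic tRNA synthetases, enzymes that load tRNAs and that ATF4 can raise, 6 rose and 6 fell: AARS differed by -1.15 ± 0.09 (SE, adjusted p = 5.42e-05), RARS by 0.58 ± 0.06 (SE, adjusted p = 0.000269) and IARS by 0.39 ± 0.05 (SE, adjusted p = 0.00059). The medians of these lists were -0.02 and -0.07, beside 0.01 over all genes.

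Of 14 tested genes of one-carbon and glycine metabolism outside the members, 2 rose and 3 fell with the inhibitor (median 0.03). MTHFD1, the cytosolic counterpart of the mitochondrial MTHFD enzymes, differed by -1.11 ± 0.07 (SE, adjusted p = 2.22e-05), and SLC25A32, the mitochondrial folate carrier, by 0.58 ± 0.08 (SE, adjusted p = 0.000649). Of 12 tested genes of proline, glutamate and aspartate metabolism 4 rose and 2 fell (median 0.04), OAT, ornithine aminotransferase, by 0.43 ± 0.07 (SE, adjusted p = 0.00156) and GOT2, the mitochondrial aspartate aminotransferase, by -0.30 ± 0.05 (SE, adjusted p = 0.00264). Of 16 tested further ATF4 targets out of 24, 2 rose and 5 fell (median 0.06), with the autophagy gene MAP1LC3B at -1.01 ± 0.13 (SE, adjusted p = 0.000569) and SQSTM1, an autophagy receptor, at 0.22 ± 0.05 (SE, adjusted p = 0.00645). Between the control groups the counts higher and lower were 4 and 3 for the eIF2 list, 9 and 4 for the synthetases, 2 and 3, 3 and 1, and 4 and 4 for the last list, where 38.3% of all genes passed. With the siRNA, EIF2B1, an exchange factor subunit, passed at -0.32 ± 0.07 (SE, adjusted p = 0.0488) and DLD, a glycine cleavage subunit, at -0.29 ± 0.06 (SE, adjusted p = 0.0487), and no other gene of these lists did. Against the siRNA controls 0 genes of these lists passed with the inhibitor in limma. In the order of the lists, 4 of 17, 6 of 18, 2 of 14, 2 of 12 and 2 of 16 genes had an unadjusted p under 0.05. Of all 12846 genes, 1599 did.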

How the data were processed

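The deposited values are gene-level FPKM that the authors obtained with Cufflinks, per the file headers; the submitters' processing notes also name STAR 2.3.0e, SAMtools 0.1.19 and the build hg19. For Cufflinks, the version, the options and its use of strand are not stated there. Per the labels' protocols, stranded total RNA libraries were run on a HiSeq-2000.

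The 16 samples are 8 libraries of 2 runs each. Runs were averaged and counted once. The tests covered genes averaging 1 FPKM or more whose locus spans 300 bases or more (12846 of 63653), after median-of-ratios scaling (factors 0.878 to 1.09). Levels printed are scaled FPKM. The test was limma 3.58.1 on log2(FPKM + 1) (R 4.3.3, mean-variance trend, 4 groups in 1 fit, 4 residual and 5.04 prior degrees of freedom), with Benjamini-Hochberg adjustment at 0.05. The pseudocount of 1 understates fold changes of low genes. The fit was also run on simulated data in which only the siRNA libraries held changed genes. That simulation had no inhibitor controls standing apart, so it does not test the comparisons that use them.

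Members called in any of the 4 comparisons between groups, and 12 members set by name (among them ATF4, ASNS, CHAC1, PSPH and SLC7A11), are given per library; of each pathway list up to 3 called genes of smallest p may be named. Members and lists were chosen with earlier results of these data known. So were the comparison of the control groups and that of the inhibitor with the siRNA controls, because the inhibitor controls stood apart. Alternatives were a pseudocount of 0.1, no filter, short genes kept, FPKM as deposited, quantile normalization, either run alone, robust empirical Bayes, a replicate block, each library left out and both inhibitor controls left out. FPKM gives no counts, so counting intervals were not computed. Loci are hg19; sequences are RefSeq, GRCh38.p14.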

Additional observations from a re-analysis of the deposited data

Results flagged for a closer look

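The effect of the inhibitor against its controls differed from that of the siRNA against its controls for 5 members, by an interaction contrast in limma with adjustment over all genes, of which 11.8% passed. MTHFD2 rose with the inhibitor (0.37) and had -0.22 with the siRNA, a difference of 0.58 on the log2 scale. PHGDH had -0.98 and -0.07, a difference of -0.91. The difference was -0.56 for MTHFD1L (-0.53 and 0.03), -0.32 for SLC38A2 (-0.28 and 0.03) and 0.27 for ATF4 (0.34 and 0.07). In each of the 5 the inhibitor controls lay outside the range of the other 6 libraries, as in 51.6% of all genes, and their part in these differences was not tested. Groups of 2 libraries are too small for a test of single outlying libraries.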

How the results depend on the processing

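With 2 libraries a group, 8 of the 16 members called for the inhibitor against its controls held under every alternative run (ATF4, DDIT3, TRIB3, PHGDH, MTHFD2, MTHFD1L, SLC1A5 and STC2), as did 7 of 17 between the control groups and 2 of 5 in the difference of effects. Members called for the inhibitor (16) became 10 with FPKM as deposited, those between the control groups (17) became 11 with no filter and 11 with the second run alone, those for the siRNA (0) became 1 with quantile normalization and 1 with robust empirical Bayes, and those in the difference of effects (5) became 2 with no filter, 2 as deposited, 3 with the first and 3 with the second run. Leaving out 1 library gave 12 to 17, 10 to 17, 0 to 0 and 2 to 5 members in these comparisons and 0 to 0 for the inhibitor against the siRNA controls.

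Of all genes, 4686 calls for the inhibitor became 2996 with no filter, 3112 as deposited and 3117 with the first run (2668 to 4774 without 1 library). For the siRNA 273 became 5, 134 and 31 in that order, 22 with short genes kept, 45 with the second run and 130 without both inhibitor controls (10 to 423). Between control groups 4916 became 3176 with no filter and 3212 with the first run (3455 to 4851). For the inhibitor against siRNA controls 5 became 0, 32 and 1, and 12 with short genes, 2 with the second run, 11 with robust empirical Bayes and 11 without both inhibitor controls (0 to 43). In the difference of effects 1520 became 239, 738 and 526, and 717 with the second run (488 to 1464). The cause was not tested.

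No shift shared by like-numbered libraries was seen (their deviations correlated at -0.098 to 0.048). This does not settle whether the replicate numbers pair the libraries. With the replicate number as a block, 68 genes passed for the siRNA, and 15, 0, 16, 0 and 5 members passed for the inhibitor, the siRNA, the control groups, the inhibitor against siRNA controls and the difference of effects.

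Signs changed only for differences that had not passed. With no filter on low values the sign changed for CEBPB 0.009 (inhibitor against the siRNA controls). With FPKM as deposited the sign changed for PSPH -0.006 (inhibitor against its controls), ATF5 -0.003, MTHFD1L -0.031, SLC38A2 -0.026 (siRNA against its controls), PSPH -0.054 (siRNA controls against inhibitor controls), CEBPB 0.10, PSPH 0.049, SHMT2 0.104 (inhibitor against the siRNA controls). With quantile normalization the sign changed for CEBPB 0.013, SHMT2 0.004 (inhibitor against the siRNA controls). With the first run alone the sign changed for PSPH -0.041 (inhibitor against its controls), DDIT4 -0.103, MTHFD1L -0.008 (siRNA against its controls), CHAC1 0.023, SHMT2 0.01, STC2 0.03 (inhibitor against the siRNA controls). With the second run alone the sign changed for CEBPB 0.022 (inhibitor against the siRNA controls). With both inhibitor controls left out (an alternative chosen after seeing the data) the sign changed for CEBPB 0.004 (inhibitor against the siRNA controls). Without 1 library the ranges that crossed 0 were PSAT1 -0.071 to 0.008, PSPH -0.018 to 0.032, SLC7A11 -0.013 to 0.335 (inhibitor against its controls), EIF2AK4 -0.217 to 0.136, DDIT4 -0.064 to 0.191, SLC38A2 -0.004 to 0.072, ATF5 -0.069 to 0.16, PHGDH -0.16 to 0.014, MTHFD1L -0.059 to 0.114 (siRNA against its controls), CEBPB -0.005 to 0.002, SHMT2 -0.062 to 0.03, PSPH -0.136 to 0.001, DDIT3 -0.008 to 0.15 (inhibitor against the siRNA controls). Low members are limited by depth: the authors' interval for a run spanned a median of 69.8% of the value to either side for JDP2 and 4.23% for MTHFD2.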
